A study of Mus musculus with 27 samples.

Results

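Mitochondrial ribosomal protein genes were taken as all rows of the deposited table whose symbol begins with Mrpl or Mrps followed by a number and at most 1 letter. The rule uses names and no measured value, and it found 77 of 36333 genes, 48 named for the large subunit and 29 for the small subunit. They were measured by RNA-seq in 27 samples of *Mlx*KO mice. These mice carried *Mlx* Flox/Flox alleles together with Gt(ROSA)26Sortm1(cre/ERT2)Tyj, on a B6.129 background, so that a tamoxifen-dependent Cre was driven body-wide from the ROSA26 locus. All received 5 daily i.p. injections of tamoxifen in corn oil (75 mg/Kg) at weaning, once they weighed at least 15 g, so that deletion of *Mlx* was induced in every group compared here, and all were male. By the study's own qRT-PCR the deletion was less complete in skeletal muscle than in liver and adipose tissue and varied between mice. This limits these samples as a model. In skeletal muscle and adipose tissue, the remaining *Mlx* expression also ran higher in the older mice, with overlap between the ages. The part of this remaining expression in the age changes below was not tested. Liver, omental adipose tissue and skeletal muscle were each taken from 4 mice at 5 months and 5 mice at 20 months. The 4 younger mice gave all 3 tissues. Their livers are named X5L4299, X5L5001, X5L5238 and X5L5239, their adipose samples X5F4299 to X5F5239 and their muscle samples X5S4299 to X5S5239, and values are given in that order of mice. Of these 4 mice, that of X5L5238 kept the most *Mlx* expression in muscle by the qRT-PCR, and that of X5L5001 the least. The order differed in the other tissues. In adipose tissue the mouse of X5F4299 kept the most, and in liver that of X5L5238 kept no more than any other. The 20-month samples share no mouse number. The annotation gives the older age as 20 months, although the bracketed sample names carry the number 18. The study's qRT-PCR list also gives 18 months for animals whose numbers end in the same digits as the older samples. The groups are named here by the annotation. WT samples were not analysed here, so that no value below is an effect of *Mlx* loss.

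Samples held 14384695 to 25673919 reads on genes, and each value is CPM (reads scaled to a common total) divided by a further factor for its sample. Behind the 77 genes stood 70 to 3239 reads per gene and sample, with values between 2.54 and 185, so that all 77 passed the filter on low values in every comparison. Intervals from such reads would cover counting error only. *Mlx* itself had values of 24.2 to 32.4 and 18.8 to 27.8 in liver at 5 and 20 months, 8.20 to 10.97 and 8.19 to 13.9 in adipose tissue, and 7.04 to 11.6 and 9.17 to 11.3 in muscle, from all reads of the gene, including exons outside the deleted part. The labelled tissues carried their markers. *Alb* was at least 26970 in every liver sample, *Adipoq* at least 532 in every adipose sample and *Acta1* at least 25481 in every muscle sample. Adipose samples also held *Acta1* at 71.8 to 428, and muscle samples held *Alb* at up to 222. Fewer cells of a type and less RNA per cell cannot be told apart in such bulk tissue.

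The mitochondrial ribosome translates the few messenger RNAs encoded by the mitochondrial genome, all of which specify core subunits of the respiratory chain and ATP synthase. Its RNAs are made inside the organelle, whereas its proteins are encoded by nuclear genes, made in the cytosol and imported. The small subunit binds messenger RNA and decodes it, and the large subunit joins the amino acids and feeds the new protein into the inner membrane. Liver and muscle are rich in mitochondria, whereas white adipocytes hold few. Some symbols do not follow the present assignment of the proteins. *Mrps18a* and *Mrps30* are now placed in the large subunit, and *Mrps36* is now counted with the 2-oxoglutarate dehydrogenase complex of the citric acid cycle. They were kept here under their symbols.

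The 77 genes lie on 17 chromosomes and have short transcripts, with a median length of 1226 bases against 2529 for protein-coding genes. For 18 of the 77 (23.4%), the start lay within 1000 bases of the start of a protein-coding gene on the other strand, pointing away from it, against 6.87% of 21041 protein-coding genes. *Mrps12*, for the protein of the decoding site, starts 172 bases from *Sars2*, which encodes the mitochondrial seryl-tRNA synthetase, and *Mrpl32* starts 75 bases from *Psma2*, a proteasome subunit gene. *Mrps11* and *Mrpl46*, 1 gene of each subunit, start side by side on opposite strands, head to head, by their RefSeq coordinates. In the gene models used for the count their exons overlap, so that they are not among the 18. Promoter windows of 300 bases, 250 before and 50 after each start (RefSeq, GRCm38.p6), were found for 68 of the 77, and these 68 had 74 windows. No window was used for *Mrpl4*, *Mrpl13*, *Mrpl15*, *Mrpl19*, *Mrpl38*, *Mrpl54*, *Mrps28*, *Mrps34* and *Mrps35*. The windows of the set held a median of 21.5 CG steps, against 7 over all 32851 windows used. Each motif was searched on both strands. The ETS motif CCGGAAG was found in 33.8% of the windows of the set and 8.86% of all windows. The YY1 motif AAGATGGCG was found in 10.8% against 1.40%, and the NRF1 motif GCGCATGCG, whose copies on both strands may overlap, in 9.46% against 1.75%. The E box CACGTG, which *Mlx* can bind with its partners, was likewise found in 9.46% of windows, against 7.15%. Since 3 overlapping windows of *Mrpl2* hold the same copy, it was found for 5 of the 68 genes (7.35%), namely *Mrpl2*, *Mrpl20*, *Mrpl36*, *Mrpl37* and *Mrps18c*, against 8.09% of 27025 genes with a window. The ERR motif TCAAGGTCA was found in 0 of the 74 windows and in 0.423% of all. A match in these letters is no evidence of binding, and windows differ in base composition. The longer tandem element of E box-like letters, which the study gives as the classical site of *Mlx* and its partners, was not searched.

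Printed below are the windows of *Mrpl34*, which changed most in adipose tissue, of the head-to-head genes *Mrps12*, *Mrpl32* and *Mrps11*, and of *Mrps31* and *Mrpl45*, which changed in opposite directions in different tissues. The windows of *Mrps31* and *Mrpl45* lie inside the gene coordinates given further below, so that the outermost start of either gene was not searched. Each runs 5′ to 3′ on the gene's strand, capitals mark the motif, and positions count from the start site.
*Mrpl34* (chr8:71464676-71464975, plus strand), ETS motif from position -37: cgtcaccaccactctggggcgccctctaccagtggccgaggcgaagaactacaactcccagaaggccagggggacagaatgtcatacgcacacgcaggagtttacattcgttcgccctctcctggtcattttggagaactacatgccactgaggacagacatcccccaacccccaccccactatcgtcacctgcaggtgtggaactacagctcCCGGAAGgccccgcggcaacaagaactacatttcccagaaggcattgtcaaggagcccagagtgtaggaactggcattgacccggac
*Mrps12* (chr7:28741772-28742071, minus strand), ETS motif from position 2: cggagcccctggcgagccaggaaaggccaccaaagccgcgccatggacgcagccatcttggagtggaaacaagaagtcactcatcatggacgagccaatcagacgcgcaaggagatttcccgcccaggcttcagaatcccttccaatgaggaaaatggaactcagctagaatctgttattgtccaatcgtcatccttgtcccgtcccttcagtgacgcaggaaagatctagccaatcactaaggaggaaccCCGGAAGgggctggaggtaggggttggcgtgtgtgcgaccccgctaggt
*Mrpl32* (chr13:14612988-14613287, minus strand), 3 NRF1 matches, a pair of them overlapping: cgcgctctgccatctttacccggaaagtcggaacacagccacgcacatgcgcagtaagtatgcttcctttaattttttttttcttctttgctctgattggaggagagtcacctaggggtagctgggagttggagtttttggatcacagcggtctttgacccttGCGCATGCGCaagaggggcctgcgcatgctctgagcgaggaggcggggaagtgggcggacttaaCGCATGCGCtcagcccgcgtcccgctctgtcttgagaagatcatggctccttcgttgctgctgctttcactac
*Mrps11* (chr7:78782881-78783180, plus strand), YY1 motif from position -108: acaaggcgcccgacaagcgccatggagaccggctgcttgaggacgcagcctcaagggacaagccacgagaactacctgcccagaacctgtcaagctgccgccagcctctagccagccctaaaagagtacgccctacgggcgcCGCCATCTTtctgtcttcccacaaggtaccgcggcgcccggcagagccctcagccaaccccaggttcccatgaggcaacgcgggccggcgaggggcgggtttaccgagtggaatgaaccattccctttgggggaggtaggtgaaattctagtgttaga
*Mrps31* (chr8:22411090-22411389, plus strand), none of the 5 motifs: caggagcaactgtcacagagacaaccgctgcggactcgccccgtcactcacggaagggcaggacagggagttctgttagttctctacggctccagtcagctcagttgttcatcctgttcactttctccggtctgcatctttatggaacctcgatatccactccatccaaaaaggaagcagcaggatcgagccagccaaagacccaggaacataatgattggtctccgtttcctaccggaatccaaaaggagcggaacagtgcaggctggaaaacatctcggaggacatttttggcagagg
*Mrpl45* (chr11:97315466-97315765, plus strand), none of the 5 motifs: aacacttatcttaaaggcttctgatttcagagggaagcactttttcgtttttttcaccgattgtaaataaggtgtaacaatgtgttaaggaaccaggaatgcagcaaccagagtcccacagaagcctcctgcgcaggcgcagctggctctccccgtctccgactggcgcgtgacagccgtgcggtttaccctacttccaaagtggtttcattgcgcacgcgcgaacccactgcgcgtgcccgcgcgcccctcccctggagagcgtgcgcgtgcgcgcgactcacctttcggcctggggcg

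Levels were compared first across tissues. Adipose tissue stood lowest in both subunits. The median over the 48 large-subunit genes of log2(value + 1) was 5.14 ± 0.16 in liver, 3.85 ± 0.33 in adipose tissue and 4.99 ± 0.26 in muscle at 5 months (SD, n = 4), and 5.27 ± 0.13, 4.18 ± 0.12 and 5.28 ± 0.09 at 20 months (SD, n = 5). For the 29 small-subunit genes it was 4.85 ± 0.16, 3.83 ± 0.27 and 4.88 ± 0.30 at 5 months, and 4.91 ± 0.19, 4.10 ± 0.09 and 5.20 ± 0.04 at 20 months. In both subunits every adipose sample lay below every liver and muscle sample, and the liver and muscle samples overlapped at 5 months. At 20 months they overlapped in the large subunit only. In the small subunit every muscle sample (5.15 to 5.25) then lay above every liver sample (4.61 to 5.04). By group means, liver was highest for 41 genes at 5 months and skeletal muscle for 35, and adipose tissue was lowest for 74 of 77.

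**Figure D1:**
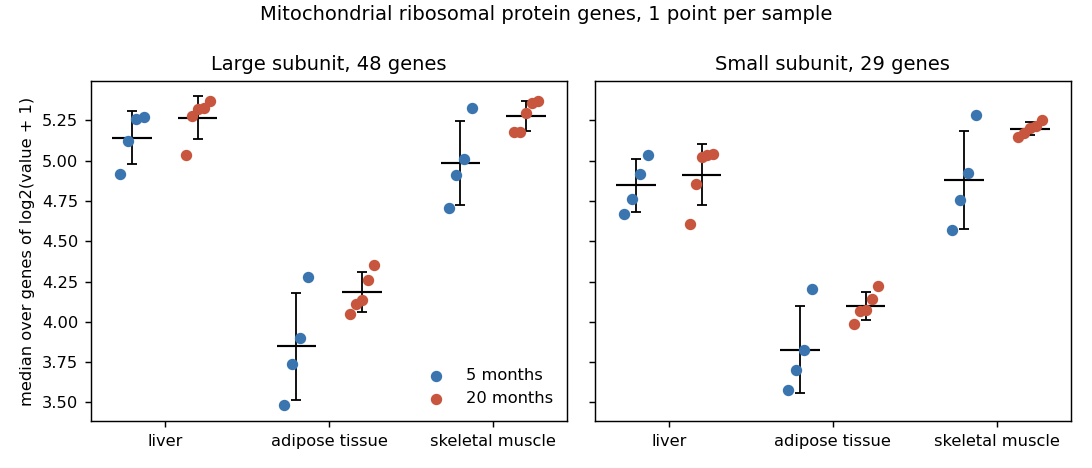
Median of log2(value + 1) over the large-subunit genes (left) and the small-subunit genes (right), 1 point per sample, by tissue and age (blue 5 months, n = 4; red 20 months, n = 5). Bars show the mean and SD over samples. All adipose samples lie at 4.36 or lower, and all liver and muscle samples at 4.57 or higher.

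At 5 months, 70 of the 77 genes were higher in liver than in adipose tissue and 1 was lower (limma adjusted p under 0.05), where 39.4% and 36.8% of all genes tested passed in these directions (76.2% in either). The median log2 difference over the 77 was 1.27, against 0.04 over all genes tested. At 20 months, 71 were higher and 2 lower (background 76.1% in either direction, median 1.12). Against skeletal muscle, 69 were lower in adipose tissue at 5 months (background 32.0%) and 0 higher (background 39.7%, 71.6% in either direction), with 1 higher at an unadjusted p under 0.05. There edgeR called 0 higher and DESeq2 called 1. At 20 months, 73 were lower and 2 higher (background 82.7% in either direction). The median differences were -1.13 and -1.15.

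These counts depended on the scaling of the samples. With each sample scaled to the same total, the 5-month counts for liver against adipose tissue became 27 higher and 16 lower. Those for adipose tissue against muscle became 10 higher and 24 lower. In these fits 84.8% and 81.9% of all genes passed in either direction, against 55.8% and 44.2% of the 77. That scaling moved the median of all genes to -1.03 and 1.02 in these 2 comparisons. Relative to the median of all genes, the median of the 77 was 1.23 as deposited and 1.19 under that scaling for liver against adipose tissue, and -1.27 and -1.23 for adipose tissue against muscle. Taking out the dependence on transcript length and GC content lowered the first to 0.75 and left the second at -1.10.

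Liver and skeletal muscle differed gene by gene, with no common direction. At 5 months, 28 of the 77 were higher in liver and 20 in muscle (background 39.4% and 38.2%, 77.6% in all), with a median difference of 0.04. At 20 months, 25 were higher in liver and 33 in muscle (background 82.5%), with a median of -0.09. The length and GC correction turned these splits to 10 and 37 at 5 months and 8 and 55 at 20 months (background 79.8% and 83.4%). Other scalings also tilted them towards muscle (15 and 30 at 5 months without the 20 most abundant genes, background 77.1%). Which of these tissues is higher therefore rests on the processing for the set, but not for the genes furthest apart.

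The genes furthest apart had their own tissue. *Mrpl12*, for the stalk protein of the large subunit that also binds the mitochondrial RNA polymerase, was highest in liver. Its 5-month values were 131, 101, 142 and 132 in liver, 15.3, 11.9, 15.7 and 23.4 in adipose tissue, and 69.3, 68.0, 114 and 95.0 in muscle. Every liver exceeded every adipose sample, with means 7.65-fold apart and a log2 difference of 2.89 (SE 0.192, limma adjusted p = 7.22e-07). Liver and muscle overlapped, with a log2 difference of 0.57 (limma adjusted p = 0.0149).

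*Mrpl42*, for a large-subunit protein special to mitochondria, was highest in skeletal muscle. Its 5-month values were 105, 110, 162 and 105 in muscle, against 37.5, 40.1, 38.1 and 39.8 in liver and 12.9, 7.94, 15.4 and 22.5 in adipose tissue. The 3 tissues did not overlap. The log2 difference was -1.58 for liver against muscle (SE 0.145, limma adjusted p = 2.68e-06) and -3.01 for adipose tissue against muscle (SE 0.275, limma adjusted p = 8.18e-06). In this gene, 18.8% of the 50-base words of its transcript also occur in a related sequence, so that reads may be split.

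*Mrps36* was also a muscle gene, with 26.3, 23.9, 42.0 and 24.2 in muscle at 5 months, 8.34, 6.69, 9.48 and 7.997 in liver, and 3.73, 2.59, 7.001 and 9.87 in adipose tissue. The muscle samples lay above all others, with a log2 difference of -1.69 for liver against muscle (SE 0.190, limma adjusted p = 1.37e-05). It shares 36.2% of its words with pseudogenes. In the opposite direction, *Mrps2* and *Mrpl20*, for conserved proteins of the small and the large subunit, were higher in liver than in muscle. Their means were 3.11-fold (limma adjusted p = 3.33e-06) and 2.56-fold (limma adjusted p = 7.6e-05) apart, without overlap. The remaining genes furthest apart were *Mrpl34* (2.60, limma adjusted p = 1.26e-06) and *Mrpl15* (2.15, limma adjusted p = 1.07e-06) for liver minus adipose tissue, *Mrpl23* (-1.36, limma adjusted p = 0.000301) for liver minus muscle and *Mrpl18* (-2.24, limma adjusted p = 7.86e-07) for adipose tissue minus muscle, all on the log2 scale. The calls of the 13 differences furthest apart for the pairs of tissues at 5 months held in each of the 23 alternatives. That of *Mrpl12* between liver and muscle was not among them and was not run.

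*Mrps6* was the only member whose mean was highest in adipose tissue, at both ages. Its 5-month values were 22.05, 14.2, 36.1 and 49.0 there, 11.1, 10.5, 8.55 and 10.96 in liver, and 13.3, 20.5, 16.4 and 13.1 in muscle. Adipose tissue exceeded liver without overlap, by 1.34 on the log2 scale (a log2 difference of -1.34 for liver minus adipose tissue, SE 0.325, limma adjusted p = 0.00397), and overlapped muscle (0.78, limma adjusted p = 0.0609). At 20 months it exceeded muscle by 1.77 (limma adjusted p = 3.31e-08). *Mrps6* shares exons on its own strand with *Slc5a3*, a myo-inositol transporter gene, and 32.2% of its words. *Slc5a3* ran at 12.7 to 56.3 in adipose tissue and 3.42 to 6.26 in liver at 5 months, so that the reads of these genes cannot be told apart.

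**Figure D2:**
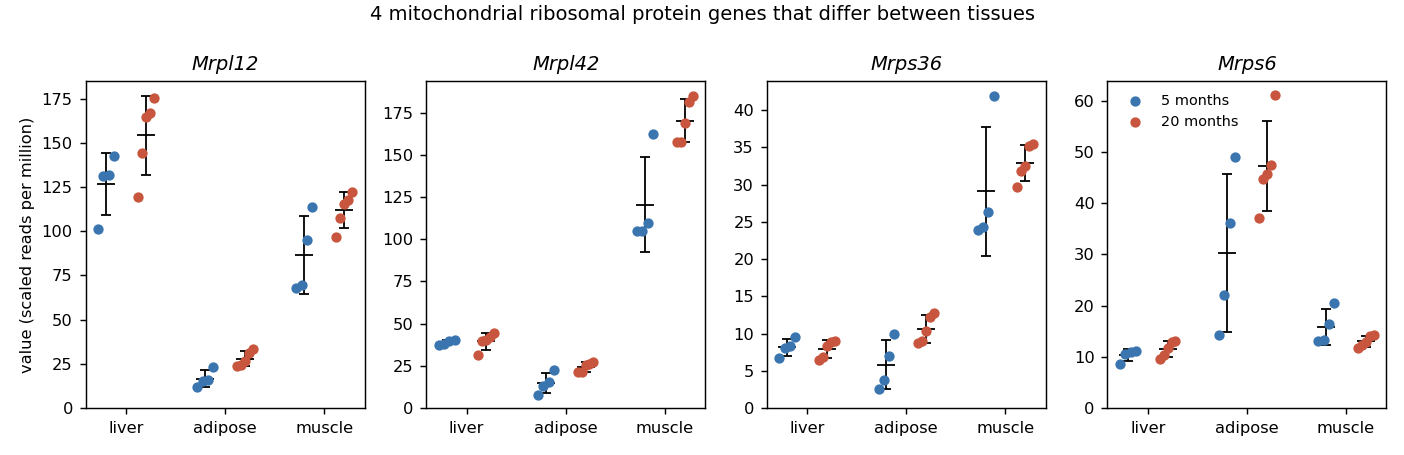
Values (CPM divided by a sample factor, linear axis from 0) of *Mrpl12*, *Mrpl42*, *Mrps36* and *Mrps6* in each sample, by tissue and age (blue 5 months, n = 4; red 20 months, n = 5), with mean and SD. *Mrpl12* is highest in liver, *Mrpl42* and *Mrps36* in muscle, and *Mrps6* in adipose tissue.

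Levels can be compared between genes only per length of transcript. Although the ribosome holds most of its proteins in single copies, values per kilobase spread 29.3-fold over the 77 genes in liver, 43.8-fold in adipose tissue and 53.7-fold in muscle at 5 months. The highest were *Mrpl12* in liver (96.3 ± 13.4 per kilobase, SD, n = 4), whose protein is carried in several copies, *Mrpl33* in adipose tissue (41.7 ± 10.3) and *Mrpl42* in muscle (181 ± 42.1). They stayed highest per kilobase of coding sequence. Next in rank were *Mrpl34* (86.3 ± 10.2) and *Mrpl52* (84.8 ± 12.1) in liver, *Mrps21* (37.1 ± 17.9) and *Mrpl30* (36.1 ± 6.05) in adipose tissue, and *Mrps21* (100 ± 42.0) and *Mrpl33* (94.5 ± 15.5) in muscle. Of the lowest, *Mrpl47* was among the 3 lowest in all 3 tissues, at 3.79 ± 0.697, 0.951 ± 0.206 and 3.72 ± 0.731, and was lowest per kilobase of coding sequence in liver and adipose tissue. *Mrpl19* was at 3.34, 1.43 and 3.37. *Mrps25* was lowest in liver per kilobase of its 6073-base transcript model (3.29 ± 0.239) but ranked 51 of 77 per kilobase of coding sequence. *Mrpl57*, among the lowest in adipose tissue (2.75), ranked 32 by that measure, and *Mrps35* in muscle (4.06) ranked 71.

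Age was compared within each tissue, as 20 minus 5 months. In skeletal muscle, 18 of the 77 genes rose and 0 fell (limma adjusted p under 0.05), where 9.13% of all genes rose and 10.1% fell (19.3% in all). Of those 18, 10 belong to the large and 8 to the small subunit. The median log2 change was 0.29 over the 77, 0.29 over the large and 0.30 over the small subunit, against 0.02 over all genes tested, and 73 of 77 changes were positive. No gene of the set fell at an unadjusted p under 0.05, nor with edgeR (15 rose) or DESeq2 (20 rose). These 2 methods called 19.3% and 25.3% of all genes in either direction. For 9 genes, every 20-month sample exceeded every 5-month sample (background 8.63%), and for 0 the reverse held (background 8.64%).

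In adipose tissue, 8 rose and 1 fell, against 9.75% and 9.35% of all genes (19.1% in all), so that the share of members that passed was below the background. The ages did not overlap for 9 higher and 1 lower gene (background 8.30% and 9.10%). All 9 genes past the threshold belong to the large subunit. The small subunit had 0 calls with limma and with edgeR, and 4 with DESeq2, which called 31.1% of all genes. At an unadjusted p under 0.05 it had 13 of 29 genes, against 5601 of all 14005 genes tested. Whether the subunits differ was not tested. The median change was 0.28, 0.29 over the large and 0.28 over the small subunit, against 0.01 over all genes, and 63 of 77 changes were positive.

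In liver, 6 rose and 1 fell, against 1269 and 1239 of 12654 genes tested (19.8% in all), so that fewer members passed than the background gives. The ages did not overlap for 9 higher and 1 lower gene (background 8.46% and 10.7%). The median change was 0.12, 0.11 over the large and 0.15 over the small subunit, against 0.00 over all genes, and 52 of 77 changes were positive. Correcting for transcript length and GC content turned the split to 4 higher and 5 lower (background 15.9%) and the median to -0.04. Scaling to the same total gave 36 higher and 1 lower (background 24.1%) with a median of 0.34. It also moved the median of all genes to 0.21. In skeletal muscle and adipose tissue the median of the 77 stayed positive under every alternative with all samples kept (0.24 to 0.39 and 0.16 to 0.34) and with each sample left out (0.20 to 0.43 and 0.19 to 0.39).

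**Figure D3:**
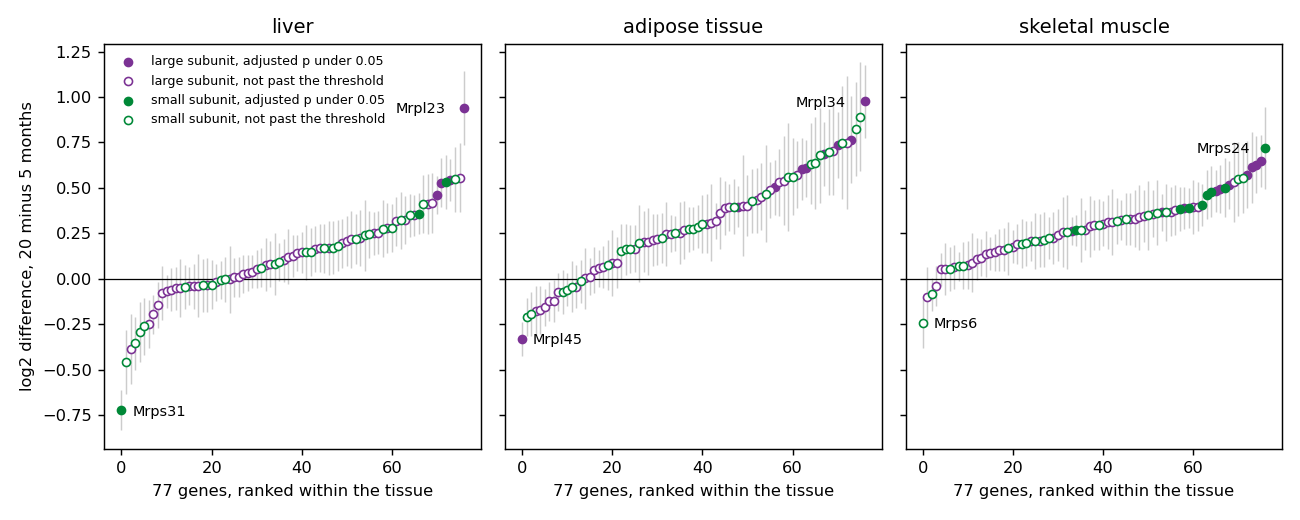
Log2 change from 5 to 20 months of each of the 77 genes, ranked within the tissue, with its standard error (grey). Filled points passed a limma adjusted p of 0.05 (purple large subunit, green small subunit). Skeletal muscle has 18 filled points above 0 and none below, and *Mrps31* in liver and *Mrpl45* in adipose tissue are the single filled points below 0 in their tissues.

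Single samples moved these counts. The shares of all genes called in the same fits are not reported here, so that the counts below have no background. In skeletal muscle, 49 genes rose without the 5-month sample X5S5238, and 3 to 8 rose without any other single sample. In adipose tissue, 32 passed without the 5-month sample X5F5239, 11 without 20-month replicate 36 and 7 without X5F5238. There, 1 passed without X5F5001 or without any of the 20-month replicates 37, 38, 39 and 40, and 0 without X5F4299 (18 at an unadjusted p under 0.05, limma). In liver, 15 passed without 20-month replicate 74, 5 without replicate 17, and 4 without X5L4299, X5L5001, replicate 18 or replicate 19.

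Over all 3 tissues, 26 of the 77 (33.8%) passed in at least 1, 8 (10.4%) in 2 and 0 in 3 by limma, against 44.3%, 9.996% and 1.12% of the 11014 genes tested in every tissue. The change was positive in all 3 tissues for 45 of the 77 (58.4%), against 19.2% of those genes. The tissues share their younger mice, and the genes of the set moved together between these mice (below). Neither the 3 tissues nor the 77 genes are therefore independent observations. In the same direction in 2 tissues rose *Mrpl33* and *Mrps24* (liver and muscle) and *Mrpl18*, *Mrpl42*, *Mrpl49* and *Mrpl53* (adipose tissue and muscle). *Mrps31* and *Mrpl45* passed in opposite directions in 2 tissues.

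*Mrps31*, which encodes a mitochondria-specific protein of the small subunit, fell in liver and rose in skeletal muscle. It lies on chromosome 8 (22410449 to 22429669, GRCm38.p6, gene ID 57312). In liver its values were 40.9, 47.3, 41.7 and 42.2 at 5 months, and 31.5, 26.0, 24.98, 23.1 and 23.4 in replicates 16, 17, 18, 19 and 74 at 20 months. Every old liver was below every young liver, with the old mean at 0.60 of the young mean and a log2 change of -0.72 (SE 0.112, limma adjusted p = 0.00746). In muscle they were 20.3, 17.2, 24.7 and 21.3 at 5 months and 30.1, 24.3, 26.9, 30.3 and 27.6 in replicates 56 to 60. The ages overlapped there, and the log2 change was 0.41 (SE 0.117, limma adjusted p = 0.0334). In adipose tissue, 7.94, 9.09, 9.19 and 10.3 at 5 months stood against 8.90, 6.35, 8.18, 7.80 and 8.09 in replicates 36 to 40, a log2 change of -0.19 (limma adjusted p = 0.248).

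The difference between tissues was tested itself. The change of *Mrps31* in liver minus that in muscle was -1.13 on the log2 scale (SE 0.158, limma adjusted p = 8.13e-05), in liver minus adipose tissue -0.53 (limma adjusted p = 0.0254) and in adipose tissue minus muscle -0.60 (limma adjusted p = 0.0135). The liver change passed in all 23 alternatives, left-out samples included, whereas the muscle change failed in 9 of 23, 7 of them with a sample left out.

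*Mrpl45*, for a protein at the exit of the large subunit that holds it to the inner membrane, rose in liver and fell in adipose tissue. It lies on chromosome 11 (97314923 to 97329920, gene ID 67036). The liver values were 29.5, 29.6, 34.6 and 37.5 at 5 months and 42.6, 48.5, 56.8, 48.8 and 44.8 at 20 months, in the order of samples given above. The ages did not overlap, and the log2 change was 0.54 (SE 0.116, limma adjusted p = 0.0136). The adipose values were 20.1, 22.9, 21.6 and 22.2, and then 17.8, 17.4, 16.1, 15.4 and 18.5, again without overlap, a log2 change of -0.33 (SE 0.0918, limma adjusted p = 0.0377). In muscle, the log2 change was 0.14 (limma adjusted p = 0.275). The change in liver exceeded that in adipose tissue by 0.88 (SE 0.130, limma adjusted p = 0.000126) and that in muscle by 0.40 (limma adjusted p = 0.0331), and adipose tissue minus muscle was -0.47 (limma adjusted p = 0.0175). The liver rise passed in all 23 alternatives, and the adipose fall failed in 8 of 23, 7 of them with a sample left out.

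**Figure D4:**
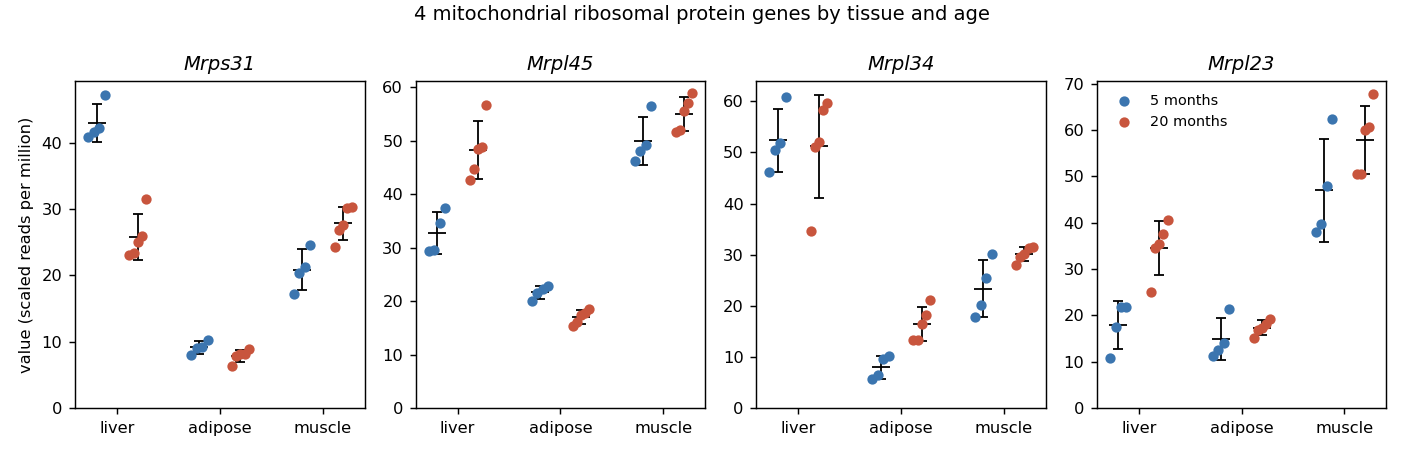
Values (CPM divided by a sample factor, linear axis from 0) of *Mrps31*, *Mrpl45*, *Mrpl34* and *Mrpl23* in each sample, by tissue and age (blue 5 months, n = 4; red 20 months, n = 5), with mean and SD. *Mrps31* falls in liver from 43.0 to 25.8 and rises in muscle from 20.8 to 27.8 by group means, and *Mrpl45* rises in liver and falls in adipose tissue.

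Among the other large-subunit genes, *Mrpl23*, for a protein of the exit tunnel, rose most in liver. Its values were 17.4, 10.8, 21.7 and 21.8 at 5 months and 25.03, 35.4, 40.5, 37.7 and 34.5 at 20 months. The ages did not overlap, and the log2 change was 0.94 (SE 0.204, limma adjusted p = 0.0145). It passed in all 23 alternatives, but 76.4% of its words also occur in a pseudogene, so that reads may be split. *Mrpl54* and *Mrpl33* rose in liver by 0.53 (limma adjusted p = 0.0238) and 0.46 (limma adjusted p = 0.017), each without overlap of the ages. The *Mrpl54* call failed in 6 of 23 alternatives, 4 of them with a sample left out, and the *Mrpl33* call in 1.

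*Mrpl34*, for a small conserved protein of the large subunit, rose most in adipose tissue. Its values there were 6.44, 5.58, 9.59 and 10.2 at 5 months and 13.3, 18.3, 21.1, 13.2 and 16.3 at 20 months. Every old sample was above every young sample, with means 2.07-fold apart and a log2 change of 0.98 (SE 0.200, limma adjusted p = 0.0187). In liver, it was at 60.9, 51.9, 50.5 and 46.2, and then at 58.4, 52.1, 59.8, 51.1 and 34.6, where the ages overlapped. The change in liver minus that in adipose tissue was -1.03 (SE 0.248, limma adjusted p = 0.00682). *Mrpl12* rose in adipose tissue from 16.6 ± 4.84 to 27.8 ± 4.20 (SD, n = 4 and 5), a log2 change of 0.74 (limma adjusted p = 0.0292). *Mrpl42* (0.77), *Mrpl57* (0.69) and *Mrpl53* (0.61) rose there as well (limma adjusted p = 0.0498, 0.033 and 0.0316), and *Mrpl42* overlapped between the ages. With each of the 9 samples left out in turn, these 4 genes failed 6 or 7 times and *Mrpl34* failed once.

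In skeletal muscle, *Mrpl53* and *Mrpl48*, for large-subunit proteins special to mitochondria, were called in all 23 alternatives. *Mrpl53* had values of 26.0, 24.8, 42.1 and 32.8 at 5 months and 52.4, 46.7, 50.4, 43.7 and 50.8 at 20 months, a log2 change of 0.65 without overlap (SE 0.143, limma adjusted p = 0.0129). The sample X5S5238 was highest at 5 months. All words of the *Mrpl53* transcript also occur in an overlapping gene model. *Mrpl48* rose from 28.4 ± 8.12 to 43.2 ± 2.87 (SD, n = 4 and 5), a log2 change of 0.63 (limma adjusted p = 0.0202). *Mrpl15* (0.61, limma adjusted p = 0.0476) and *Mrpl22* (0.57, limma adjusted p = 0.0493) rose with overlap of the ages, and failed 7 and 8 times when each of the 9 samples was left out.

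Among the small-subunit genes, *Mrps24* rose in liver and in skeletal muscle. Its muscle values were 19.1, 17.1, 43.4 and 31.1 at 5 months and 46.8, 37.8, 41.8, 41.6 and 49.0 at 20 months. The sample X5S5238 lay within the older samples, and the log2 change was 0.72 (SE 0.225, limma adjusted p = 0.0437). In liver it rose by 0.53 on the log2 scale without overlap, from 44.0, 32.0, 55.6 and 49.7 to 62.4, 60.01, 66.9, 73.7 and 61.6 (SE 0.147, limma adjusted p = 0.0309). The muscle call failed in 10 and the liver call in 8 of 23 alternatives. It shares exons on its strand with *Urgcp*, whose own changes were -0.20 in liver (limma adjusted p = 0.212) and 0.07 in muscle (limma adjusted p = 0.626).

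The 3 Mrps18 genes encode related proteins. *Mrps18c* rose in muscle from 13.4 ± 2.98 to 18.6 ± 1.27 (SD, n = 4 and 5), a log2 change of 0.46 (limma adjusted p = 0.0348). Over liver, adipose tissue and muscle, *Mrps18a* had changes of 0.17, 0.29 and 0.33 and *Mrps18b* of -0.29, -0.21 and -0.09, none past the threshold (limma adjusted p = 0.422, 0.103, 0.114, 0.212, 0.163 and 0.519). *Mrps36* did not pass with age in any tissue either. *Mrps30* rose in muscle by 0.27 on the log2 scale (limma adjusted p = 0.0483), and was counted there with the small subunit by its symbol.

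The age change differed between liver and adipose tissue for 6 of the 77, against 15.6% of all genes, between liver and muscle for 2 (background 17.5%) and between adipose tissue and muscle for 3 (background 14.7%). All 3 shares are below the background in this fit. Besides *Mrps31*, *Mrpl45* and *Mrpl34*, they comprised *Mrpl42* (-0.75), *Mrps36* (-0.93) and *Mrpl44* (-0.47) for liver minus adipose tissue, and *Mrps6* (0.99) for adipose tissue minus muscle (limma adjusted p = 0.0417, 0.045, 0.0247 and 0.0331). These comparisons share their samples. With the mouse as a block, liver against muscle gave 4 genes in place of 2. With the length and GC correction as well, it gave 20 (26.0%, against 22.8% of all genes in that fit), all smaller in liver, and liver against adipose tissue gave 18 in place of 6 (23.4% against 19.7%). These shares are no longer below the background. The *Mrpl45* call for liver against muscle failed in 8 of 42 alternatives, 6 of them with a sample left out, and the *Mrpl44* call for liver against adipose tissue in 5 of 42, 3 of them so.

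The 5-month mice were ordered alike in part. The mouse of X5L5001, X5F5001 and X5S5001 held the lowest of the 4 values for 52 of the 77 genes in liver, 59 in adipose tissue and 47 in muscle. Over all genes tested, it was lowest for 27.7%, 37.7% and 31.8%, against 67.5%, 76.6% and 61.0% of the set. The highest value was that of X5L5238 for 44 genes in liver, of X5S5238 for 70 in muscle and of X5F5239 for 64 in adipose tissue (21.3%, 31.3% and 31.4% over all genes tested). The share of all reads taken by the 77 genes was 0.200%, 0.174%, 0.215% and 0.205% in the 4 livers in the order given, 0.171%, 0.160%, 0.180% and 0.226% in adipose tissue, and 0.214%, 0.181%, 0.275% and 0.223% in muscle. The second mouse, that of X5L5001, was lowest in each. At 20 months the shares were 0.244% to 0.257%, 0.201% to 0.240% and 0.281% to 0.315%, so that the ages overlapped only in adipose tissue. These shares also move with the other genes of a sample.

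**Figure D5:**
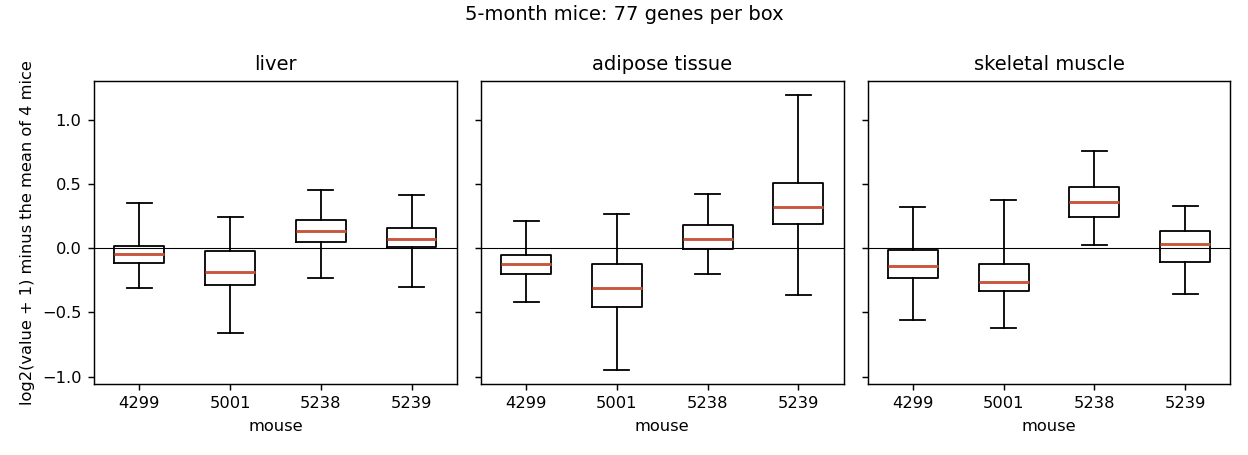
Difference of log2(value + 1) from the mean of the 4 mice at 5 months, for the 77 genes, by mouse and tissue. Boxes show the quartiles and median (red), and whiskers reach the lowest and highest gene. The second box, of the mouse of X5L5001, lies lowest in all 3 tissues, the box of X5L5238 and X5S5238 highest in liver and muscle, and that of X5F5239 highest in adipose tissue.

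The proportion of the summed levels was compared last. The summed value of the large-subunit genes divided by that of the small-subunit genes was 1.997 ± 0.0544 and 2.08 ± 0.0450 in liver at 5 and 20 months, 1.79 ± 0.0691 and 1.72 ± 0.0346 in adipose tissue, and 2.05 ± 0.0199 and 2.08 ± 0.0342 in muscle (SD, n = 4 and 5). The ages overlapped in every tissue, and every adipose sample was below every other sample. This ratio of sums counts more large-subunit than small-subunit genes and is no ratio of assembled subunits.

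Other genes of mitochondrial translation were counted from lists, and no list was tested as a set. Over all genes tested, 19.8% passed with age in liver, 19.1% in adipose tissue and 19.3% in muscle, in either direction. These shares are the background for every list below. Of 6 further mitoribosomal protein genes with other symbols, 1 rose and 1 fell in liver, 2 rose in adipose tissue and 2 in skeletal muscle, with median log2 changes of 0.26, 0.45 and 0.27 in these tissues, against 0.00, 0.01 and 0.02 over all genes tested. *Ptcd3*, for a small-subunit protein, fell in liver by 0.35 on the log2 scale (limma adjusted p = 0.0355) and rose in muscle by 0.25 (limma adjusted p = 0.0468), the same directions as *Mrps31*, and *Chchd1* rose in liver (0.58) and muscle (0.92, limma adjusted p = 0.0496 and 0.0132). In adipose tissue, *Gadd45gip1* (0.53) and *Ict1* (0.49), for large-subunit proteins, rose (limma adjusted p = 0.0462 and 0.0471). Of 28 assembly genes, 1 rose in liver and 6 rose in muscle (medians -0.04 in liver, 0.01 in adipose tissue and 0.26 in muscle), among them *Malsu1* (0.38 in liver, 0.78 in muscle), which blocks early joining of the subunits, and the ribosomal RNA methyltransferase gene *Mrm2* (0.84 in muscle). Limma adjusted p for these was 0.0483, 0.0139 and 0.0192.

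Of 16 translation factor genes, 6 rose in muscle and 1 in adipose tissue, and 2 fell in liver (medians 0.41, 0.13 and -0.12). The 2 were *Gfm1*, for an elongation factor, and *Lrpprc*, whose product stabilises mitochondrial messenger RNA, at -0.67 and -0.63 (limma adjusted p = 0.0264 and 0.0154). The muscle increases were led by *Taco1* (0.57) and *Mtrf1* (0.55), and in adipose tissue *Tsfm* rose by 0.56 (limma adjusted p = 0.0171, 0.0159 and 0.0388). Of 20 mitochondrial tRNA synthetase genes, 2 rose in muscle, and 1 rose and 1 fell in adipose tissue, with medians of 0.17, 0.12 and, in liver, -0.04. *Nars2* rose in muscle by 0.51 (limma adjusted p = 0.0317), and the change of *Lars2* in adipose tissue was -0.55 (limma adjusted p = 0.0287).

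Of 18 genes of mitochondrial transcription and its regulators, 1 rose and 4 fell in liver, 1 rose and 4 fell in adipose tissue, and 3 rose and 4 fell in muscle, where 17 were tested (medians -0.27, -0.02 and 0.10). *Tfam*, the packaging and initiation factor of mitochondrial DNA, rose in muscle by 0.55 (limma adjusted p = 0.0124), together with *Mterf2* (0.62, limma adjusted p = 0.0264), whereas *Pprc1* fell there by 0.72 and *Myc* by 1.43 on the log2 scale (limma adjusted p = 0.00592 and 0.0332). In liver, *Gabpa*, for a factor that binds ETS motifs, fell by 0.49 and the coactivator gene *Ppargc1b* by 0.76, and *Mlxipl*, for a partner of *Mlx*, rose by 0.78 (limma adjusted p = 0.0119, 0.0319 and 0.0089). In adipose tissue, *Esrra* rose by 0.82, and *Tfb2m* and *Pprc1* fell by 0.78 and 0.77 (limma adjusted p = 0.0314, 0.0318 and 0.0259). The ribosomal RNAs *mt-Rnr1* and *mt-Rnr2* did not pass with age in any tissue, and libraries were made from poly-A RNA. The protein-coding mitochondrial transcripts are listed at 0 in all samples.

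Some markers of cell types moved with age in the same samples. The background in either direction was 19.8% of all genes in liver, 19.1% in adipose tissue and 19.3% in muscle, and several of the counts below are near it. In adipose tissue, 6 of 6 B cell markers rose, from a summed level of 5.54 to 23.8 at 5 months to one of 19.4 to 206, and 2 of 8 macrophage markers rose (771 to 1746 against 1155 to 5706). There, 3 of 6 endothelial, 2 of 8 adipocyte, 3 of 6 mesothelial (70.0 to 144 against 36.9 to 80.2) and 2 of 5 erythroid markers (724 to 1734 against 311 to 794) fell. The adipocyte sum overlapped between the ages (9117 to 17020 against 10215 to 14649), and the median log2 change of that list was 0.24. The 1 pancreatic acinar marker tested rose (sum over the list 3.21 to 12.6 against 16.1 to 29.7), as did 2 of 3 brown adipocyte (11.1 to 16.997 against 16.5 to 24.5) and 1 of 7 T cell markers. In liver, 5 of 6 B cell, 3 of 8 macrophage and 4 of 5 erythroid markers rose, and 2 of 8 hepatocyte markers fell, with sums of 113037 to 176419 at 5 months and 48312 to 103611 at 20 months. The lowest was replicate 74, in which the median of both subunits was also the lowest of its group. In muscle, 3 of 8 macrophage and 3 of 5 erythroid markers fell, and T cell and B cell markers did not reach the filter. The 5-month muscle X5S5238 had the highest hepatocyte sum (361, against 1.69 to 40.9 in the other 3) and brown adipocyte sum (466, against 229.9 to 248). Its muscle fibre sum (162847, against 142253 to 151962) and adipocyte sum (541, against 454 to 519) were also the highest. Its macrophage (141, against 167 to 230), erythroid (421, against 517 to 703) and endothelial sums (466, against 482 to 538) were the lowest. The brown adipocyte sum was far higher in liver (802 to 961 at 5 months) than in adipose tissue (11.1 to 16.997). It therefore does not mark brown adipocytes across these tissues. The part of these cell types in the changes of the 77 genes was not tested.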

How the data were processed

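RNA-seq of liver, adipose tissue and skeletal muscle of *Mlx*KO mice was analysed as deposited. By its name and headers, the deposited table is a per-gene CPM export of CLC Genomics Workbench, and the genome used there is not given in the sources used here. In this deposited table each value is a signal equal to CPM over a sample factor, where plain CPM had been assumed in planning. All were whole multiples of 1 read (tolerance 0.01), which gave back the reads. The submitters' processing notes name GRCm38.p6 and mm10. Coordinates and promoters are those of RefSeq for GRCm38.p6. Lengths came from GENCODE M21.

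Groups followed the annotation. Tests used limma 3.58.1 (R 4.3.3) with a variance trend on log2(value + 1), over genes that reached 1 in 4 or more of the samples fitted, Benjamini-Hochberg adjustment over all genes and a threshold of 0.05. A fold on this scale understates changes of low genes. Tissues at 1 age, and the difference of age changes over all 27 samples, were tested likewise. Of 48 pairs of samples within groups, 0 were identical, and the lowest chi-square per degree of freedom was 9.81, so each counted once. Where samples of a group are not separate animals, p-values measure only the spread between samples. The 5-month mouse numbers pair tissues of the same animal. Deviations of same-mouse samples correlated at 0.136 on average (-0.0169 to 0.294, 7 of 12 over 0.1), and the mouse was a block in an alternative. Other alternatives ran the recovered reads through edgeR 4.0.16 and DESeq2 1.42.0, and used pseudocounts of 0.1 and 0.5, other filters, scalings and weights, a length and GC correction, and left out each sample. Procedures were tested on simulated reads.

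The genes named are, per tissue, the 5 largest increases and decreases with age past the threshold, genes called in opposite directions, per pair of tissues the 3 furthest apart each way at 5 months and the 3 smallest adjusted p for a difference of age changes, the 3 highest and lowest per kilobase, *Mrps18a* to c, *Mrps36*, *Mlx*, and per list the 2 largest changes each way. The genes called in 2 tissues, and those named for promoters, are outside it and were named after their values were seen. The values of 1 list gene are not reported here. Members and lists were chosen with earlier results of these data known.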

Additional observations from a re-analysis of the deposited data

Results flagged for a closer look

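The age change of 7 genes differed between tissues by a test of the difference in a fit over all samples. For liver minus adipose tissue, the log2 differences past the threshold were -0.53 for *Mrps31*, 0.88 for *Mrpl45*, -1.03 for *Mrpl34*, -0.75 for *Mrpl42*, -0.93 for *Mrps36* and -0.47 for *Mrpl44*. For liver minus skeletal muscle they were -1.13 for *Mrps31* and 0.40 for *Mrpl45*. For adipose tissue minus skeletal muscle they were -0.60 for *Mrps31*, -0.47 for *Mrpl45* and 0.99 for *Mrps6*. The values of both *Mrpl45* and *Mrps31* in adipose tissue minus muscle passed in all 42 alternatives of these fits, and that of *Mrps6* failed in 10.

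Single samples stood apart from their group by Dixon's ratio in 9 of 198 groups of values examined, where chance gives about 1 in 20. In the 5-month muscle X5S5238, *Mrpl42* was at 162 (group median 107) and *Mrps36* at 42.0 (25.3). Adipose replicate 38 at 20 months held *Mrpl22* at 7.38 (5.88), *Mrpl57* at 15.6 (12.5) and *Mrps18c* at 14.5 (9.49), and replicate 37 held *Mrpl30* at 47.0 (37.6). Liver replicate 18 held *Mrps25* at 31.7 (24.8). The median of log2(value + 1) over the large-subunit genes was 5.04 in liver replicate 74, where the group median was 5.32. The ratio of summed large-subunit to small-subunit values was 2.08 in the 5-month muscle X5S4299, against a group median of 2.04.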

How the results depend on the processing

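Of 39 results of single genes run under the alternatives, 0 changed direction, and other named values were not run under them. Most counts between tissues kept within 1.5 times their value. The exceptions were at 5 months, where scaling to the same total gave 43 genes for liver against adipose tissue (84.8% of all genes passed). It gave 34 for adipose tissue against muscle (81.9%). Counts with age moved more. That scaling gave 37 in liver, 15 in adipose tissue and 34 in muscle, rescaling without the 20 most abundant genes gave 28 in liver and 29 in muscle, and DESeq2 gave 11 in liver and 18 in adipose tissue. Sample weights gave 17 in liver and 56 in adipose tissue (35.2% and 60.4% of all genes), no filter gave 3 in adipose tissue and 7 in muscle, no variance trend gave 10 in muscle, and a fit of all 27 samples gave 30 in adipose tissue and 10 in muscle. The causes were not tested.

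For the difference of age changes, the length and GC correction gave 14 genes for liver against adipose tissue (17.7% of all genes passed). It gave 18 for liver against muscle (20.9%) and 5 for adipose tissue against muscle. Sample weights gave 35 (39.7% of all genes), 13 and 9. Counts of this paragraph without a share have no background here. A mean value of at least 5 gave 4 for liver against muscle (20.8% of all genes), and either rescaling gave 6 for adipose tissue against muscle. Under a replicate block on the mouse, the counts were 7 (17.7% of all genes), 4 and 3. With the length and GC correction as well, they were 18 (19.7%), 20 and 6. The block gave 72, 48 and 71 for the 5-month tissue pairs (77.9%, 79.4% and 74.1% of all genes) and moved no other count by over 1.5 times.

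With each sample left out in turn, age counts ran from 4 to 15 (liver), 0 to 32 (adipose tissue) and 3 to 49 (muscle). The shares of all genes in these fits are not reported here. They ran from 68 to 73 and 71 to 74 for liver against adipose tissue at 5 and 20 months, 40 to 49 and 51 to 60 for liver against muscle, and 60 to 72 and 74 to 75 for adipose tissue against muscle. For the difference of age changes they ran from 2 to 11 for liver against adipose tissue, 1 to 8 for liver against muscle and 2 to 5 for adipose tissue against muscle. The first gave 2 without X5F4299, 3 without X5F5001 and 11 without X5F5239, the second 1 without liver replicate 18, 8 without liver replicate 16 and 5 without X5F5239 or X5S5238, and the last 5 without X5F5239 or X5S5238. Each value of a member rested on at least 70 reads.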
